A study of Mus musculus with 12 samples.

Results

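Complement is a protein cascade that tags and lyses microbes and clears dying cells, and 8 of its genes were followed across 12 mouse bone marrow cultures. The 8 genes were C1qa, C1qb, C1qc, C3, C3ar1, C5ar1, Cfb and Cfp, and their members on the array were all probe sets whose platform annotation gave the gene as its single symbol. A probe set is a group of short oligonucleotides that reads one transcript. By that rule 13 probe sets of 45037 stood for 7 of the 8 genes, out of 18193 genes read by at least 1 such probe set. No probe set carried C3 alone, so C3 was not analysed here.

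The MSC and HSC co-culture group held 6 cultures seeded with 3000 mesenchymal stem cells (MSCs) and 7000 hematopoietic stem cells (HSCs), and the MSC-only group held 6 cultures with 3000 MSCs and no HSCs. Total RNA was taken on day 6 in both. MSCs had been sorted from bone marrow as PDGFR-α+, Sca-1+, CD31-, CD45- and TER119- cells, and HSCs as Lin-, Sca-1+ and c-Kit+ cells. The labels give C57BL/6 males of 6 weeks for all samples, the methods allow a wider age range and took MSCs for co-culture from EGFP transgenic mice, and neither source names the mice of single arrays. The methods describe no further sort before RNA extraction and do not say whether these co-cultures were direct or in inserts. Which cultures shared a mouse or a preparation is not stated, so p-values measure only the spread between these samples. Each value is the linear array signal of a probe set, and group differences are co-culture minus MSC-only on the scale log2(signal + 16), where the constant of 16 understates the change of dim transcripts.

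The cascade starts in several ways. C1q, a complex built from the chains of C1qa, C1qb and C1qc, binds immune complexes and dying cells and opens the classical pathway. Factor B (Cfb) and properdin (Cfp) build and stabilise the C3 convertase of the alternative pathway. Cleavage of C3 and C5 releases small peptides that are read by the receptors C3ar1 and C5ar1 on myeloid cells. Unlike most complement proteins, which the liver secretes, C1q is made mainly by macrophages and dendritic cells, and properdin by neutrophils and monocytes. C3 and factor B are also made by fibroblasts and other stromal cells under inflammatory signals.

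The sample labels were first checked against cell type and sex-linked transcripts. Ptprc, which encodes CD45, measured 11519 to 12642 in co-culture and 10425 to 13144 in MSC-only arrays, although CD45+ cells had been left out of the MSC sort. Of 20 macrophage and monocyte markers 19 were measured, and Csf1r, Lyz2, Mpeg1 and Ctss all lay in the 99.9th percentile of brightness. The summed signal of all 19 was 275600.0 to 369100.0 in co-culture and 263300.0 to 363000.0 in MSC-only arrays. Of the 19, Cd163, Siglec1, Marco and Ccr2 averaged only 85.7, 96.6, 25.4 and 34.1. All 20 stromal markers were measured, with sums of 58710.0 to 99650.0 in co-culture and 65800.0 to 115100.0 in MSC-only arrays, and Pdgfra lay between 406.9 and 1464 in co-culture and 582.8 and 1162 in MSC-only arrays. Of the stromal markers 16 had a lower mean in co-culture and 4 a higher one. In limma's test 0 of them passed and 5 had an unadjusted p under 0.05. Of the macrophage markers 10 were lower and 9 higher, with 0 past the test and 0 at an unadjusted p under 0.05. Over all 18193 genes 46.7% had a lower mean, 0.011% passed and 3.91% had an unadjusted p under 0.05. Pecam1 and Kit, markers of the cells that the MSC sort left out and the HSC sort kept, averaged 15.4 and 42.3. Macrophage-type and stromal transcripts were therefore both present in every array of both groups. In such mixed RNA, fewer cells of a type and less RNA per cell cannot be told apart.

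The labels call all samples male. Xist, the RNA of the inactive X chromosome in females, measured 13136 to 17840 in the 6 co-cultures and 21978 and 16810 in MSC-only samples 3 and 4, but at most 117.6 in MSC-only samples 1, 2, 5 and 6. The Y-linked gene Eif2s3y measured at most 13.6 in samples 3 and 4 of both groups, 1022 to 1331 in co-cultures 1, 2, 5 and 6 and 2604 to 2845 in MSC-only samples 1, 2, 5 and 6. So 8 of 12 arrays went against the male label, and without them no co-culture would be left. Results without samples 3 and 4 of both groups are given beside the comparison. In the arrays then left, Xist was high in every co-culture and low in every MSC-only sample, so group and Xist signal coincide. The part of the mismatch with the male label in the results was not tested.

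The arrays also fell into separate sets that the labels do not name. On the first principal component, computed on 44954 probe sets without any complement gene and holding 21.6% of the variance, co-cultures 2, 3 and 5 and MSC-only samples 1, 3 and 5 scored between 31.8 and 46.1. Co-cultures 1, 4 and 6 and MSC-only samples 2, 4 and 6 scored between -46.6 and -28.7. Each set held 3 arrays of each group. They are called positive-score and negative-score arrays below, values are given for each without a test, and correlations were computed within each set of 6. Because the sets were drawn from these same arrays, many genes are bound to differ between them. The share of all probe sets without overlap between the sets was not computed.

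C1qb, C1qc and C1qa are neighbouring genes on chromosome 4 in RefSeq, with no other annotated gene between them, while C3ar1, C5ar1, Cfb and Cfp lie on chromosomes 6, 7, 17 and X. The 250 bases before the annotated start were read from RefSeq (GRCm38.p6), which gave a window for 6 of the 8 genes. The windows of 5 genes are shown because C1qb, C1qc and Cfp had their higher median signals in positive-score arrays, and the receptors C3ar1 and C5ar1 in negative-score arrays. All 5 lie on the minus strand and are written 5′ to 3′ along the gene, with motif matches in capitals. C1qb spans chr4:136886201-136886450, C1qc chr4:136892915-136893164, Cfp chrX:20931556-20931805, C3ar1 chr6:122856158-122856407 and C5ar1 chr7:16259339-16259588.
C1qb: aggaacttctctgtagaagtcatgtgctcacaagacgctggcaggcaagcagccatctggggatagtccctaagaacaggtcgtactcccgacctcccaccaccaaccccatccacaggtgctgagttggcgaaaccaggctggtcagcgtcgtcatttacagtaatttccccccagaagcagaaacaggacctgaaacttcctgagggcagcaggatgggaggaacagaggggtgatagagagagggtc
C1qc: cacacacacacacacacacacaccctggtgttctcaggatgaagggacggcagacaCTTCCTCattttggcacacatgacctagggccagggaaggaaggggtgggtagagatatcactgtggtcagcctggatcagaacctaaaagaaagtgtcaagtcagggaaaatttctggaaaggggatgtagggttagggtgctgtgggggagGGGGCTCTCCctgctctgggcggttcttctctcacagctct
Cfp: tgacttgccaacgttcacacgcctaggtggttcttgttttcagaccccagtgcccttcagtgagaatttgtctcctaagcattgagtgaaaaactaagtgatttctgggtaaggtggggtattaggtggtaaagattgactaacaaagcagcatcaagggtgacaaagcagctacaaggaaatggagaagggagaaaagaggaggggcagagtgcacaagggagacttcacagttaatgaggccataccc
C3ar1: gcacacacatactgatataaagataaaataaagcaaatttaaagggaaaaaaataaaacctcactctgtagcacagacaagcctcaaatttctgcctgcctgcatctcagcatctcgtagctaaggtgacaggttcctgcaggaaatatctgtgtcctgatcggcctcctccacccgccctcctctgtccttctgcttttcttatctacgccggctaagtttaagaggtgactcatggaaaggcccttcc
C5ar1: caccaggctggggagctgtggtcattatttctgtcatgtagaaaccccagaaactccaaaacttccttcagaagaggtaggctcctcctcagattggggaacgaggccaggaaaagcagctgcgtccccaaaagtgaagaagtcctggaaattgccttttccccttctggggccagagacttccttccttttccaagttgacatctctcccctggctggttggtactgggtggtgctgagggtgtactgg

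Both strands were searched for GAGGAAG, the core bound by the myeloid factor PU.1, for TTCNNNGAA (GAS) and the interferon-stimulated response element (ISRE), which interferon-activated factors bind, for TTGCNNAA (C/EBP) and for the NF-kB consensus. C1qc held the PU.1 letters on the opposite strand, 194 to 188 bases before the start, and an NF-kB match at 41 to 32 bases, and the 2 matches do not overlap. The windows of C1qb, Cfp, C3ar1 and C5ar1 held 0 matches, so no motif of the search was common to the 3 genes or to the receptors. Among 32841 windows of the same length, 10.6% held the PU.1 letters, 7.0% GAS, 3.0% ISRE, 9.6% C/EBP and 3.9% NF-kB. A match describes letters and not a bound site. GC content was 55.2% in C1qb, 54.0% in C1qc, 46.8% in Cfp, 45.6% in C3ar1 and 52.8% in C5ar1.

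The 3 C1q chains were among the brightest transcripts of every array, with a spread near the median of bright probe sets. C1qa (probe set 1417381_at) measured 17959, 20979, 25201, 22175, 22939 and 17011 in co-cultures 1 to 6 and 24625, 21063, 18769, 16641, 25662 and 24493 in MSC-only samples 1 to 6. The means were 21044 ± 3096 in co-culture and 21876 ± 3646 in MSC-only cultures (SD, n = 6 each). Values of both groups overlapped over nearly their whole range, and the highest and lowest arrays differed 1.54-fold.

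C1qb, the second chain, was read by 3 probe sets. The brightest, 1434366_x_at, measured 24596, 29170.2, 29743, 27958, 29641 and 24567 in co-culture and 28849, 24914, 24203, 27177, 35588 and 28052 in MSC-only cultures. MSC-only sample 5 was highest and the other 11 arrays lay within the range of 24203 to 29743. The other probe sets, 1417063_at and 1437726_x_at, averaged 25983 ± 3250 and 25498 ± 2443 in co-culture, against 26671 ± 4058 and 25754 ± 4187 in MSC-only cultures (SD, n = 6 each), and MSC-only sample 5 was highest on both. Within the sets of arrays 1417063_at had r = 0.85 (positive-score) and 0.20 (negative-score) with 1434366_x_at, and 1437726_x_at had 0.95 and 0.67 with it, so in negative-score arrays the variation of C1qb depended on the probe set.

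C1qc (1449401_at), the third chain, measured 18066, 21878, 22546, 21343, 22567 and 16415 in co-culture and 22126, 21732, 19276, 15228, 24360.3 and 22989 in MSC-only cultures, with a 1.6-fold span. Co-cultures 1 and 6 and MSC-only sample 4 were the lowest 3 arrays for C1qa and for C1qc alike. All 5 probe sets of the C1q chains lay between the 99.5th and 99.8th percentile of brightness, a rank among probe sets and not of abundance between genes. The SD over 12 arrays was 0.16 to 0.22 log2 units, against a median of 0.19 over 16297 probe sets with a mean signal of at least 200. Among these the spread ranked from the 36.4th percentile (C1qb 1434366_x_at) to the 64.6th (C1qa).

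**Figure D1:**
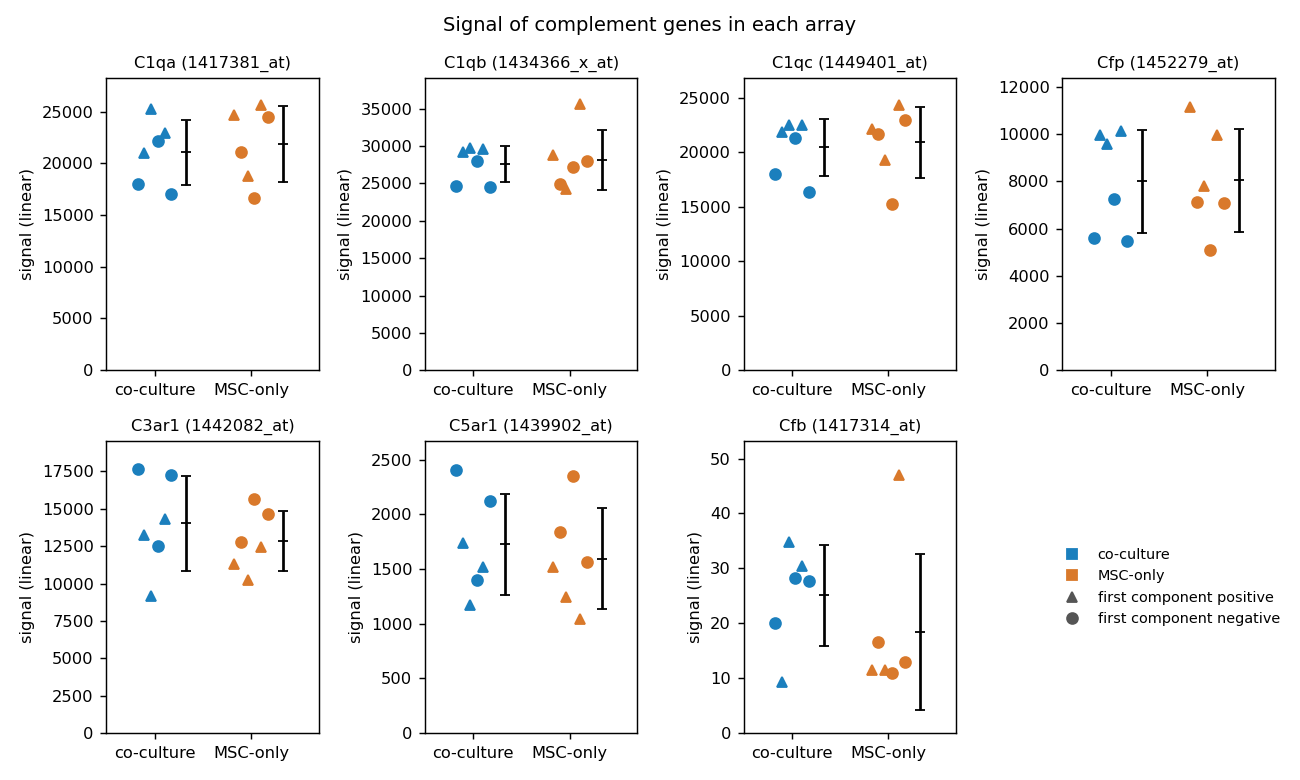
Linear array signal (y axis, from 0) of the brightest probe set of each complement gene in 6 co-culture arrays (left, blue) and 6 MSC-only arrays (right, orange), with the mean and SD of each group as bars. Triangles are positive-score and circles negative-score arrays. The groups overlap in all 7 panels, and for Cfp the triangles (7817 to 11146) lie above all circles (5089.8 to 7245).

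Cfp, properdin, spread more widely than the C1q chains. Its brightest probe set, 1452279_at, in the 97.9th percentile of brightness, measured 5614, 9970, 9581, 7245, 10149 and 5466 in co-culture and 11146, 7147, 7817, 5089.8, 9973 and 7083 in MSC-only cultures. The group means, 8004 ± 2176 in co-culture and 8043 ± 2184 in MSC-only cultures (SD, n = 6 each), were almost equal. The spread lay between the sets of arrays: Cfp was 7817 to 11146 in positive-score and 5089.8 to 7245 in negative-score arrays, with no overlap in either group. The second probe set, 1447537_at, had a lower signal (70.7th percentile), with 355.7 ± 47.9 in co-culture and 296.6 ± 77.0 in MSC-only cultures (SD, n = 6 each), and its sets of arrays overlapped (309.7 to 421.8 in positive-score and 179.6 to 373.3 in negative-score arrays). The 2 Cfp probe sets agreed poorly, with r = 0.18 within positive-score and 0.59 within negative-score arrays, so what follows on the variation of Cfp holds for 1452279_at.

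Cfb, the convertase factor that stromal cells can make, was close to the floor. Probe set 1417314_at measured 20.0, 9.2, 34.8, 28.3, 30.4 and 27.7 in co-culture and 11.5, 16.5, 11.4, 11.0, 47.1 and 13.0 in MSC-only cultures. Each of these values was below the median signal of its array, which ran from 74.8 to 89.0 over the 12 arrays. The highest value was 47.1 in MSC-only sample 5 and the lowest 9.2 in co-culture 2. Thus the 6 genes typical of macrophages and other myeloid cells were bright or moderately bright, and Cfb was at percentile 25.2. Its 1 probe set does not stand for stromal complement genes in general. Serping1 and C1s1, from the other complement genes described below, had mean signals of 519.1 and 157.5. Their r with the mean of the stromal markers was 0.86 and 0.68 in positive-score arrays. In negative-score arrays it was 0.77 and 0.87. Other complement genes did not follow that mean in both sets. In positive-score and negative-score arrays Clu gave -0.22 and -0.35, Masp1 0.49 and -0.71 and C1ra 0.20 and 0.72. Cfb itself gave -0.06 and -0.09. The SD over 12 arrays was 0.43 log2 units for Cfb and 0.39 and 0.32 for the brighter and the dimmer Cfp probe set, against 0.24 to 0.29 for those of C3ar1.

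C3ar1, the receptor of C3a, was bright on 3 probe sets, in the 97.8th to 99.0th percentile. On 1442082_at it measured 17658, 13241, 9172, 12514, 14326 and 17233 in co-culture and 11316, 12770.0, 10211, 15639.8, 12451 and 14664 in MSC-only cultures. Co-cultures 1 and 6 were the highest arrays and co-culture 3 the lowest, so the co-culture group enclosed the MSC-only group. The 3 probe sets varied together, with r between 0.83 and 0.98 within the sets of arrays. C3ar1 ran against Cfp across the sets: 4 of 6 negative-score arrays lay above every positive-score array on 1442082_at and on 1419482_at, and 5 of 6 on 1419483_at.

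C5ar1, the receptor of C5a, measured 2404, 1738, 1173, 1396, 1519.7 and 2121 on 1439902_at in co-culture and 1521, 1842, 1245, 2353, 1039 and 1566 in MSC-only cultures. Co-cultures 1 and 6 and MSC-only sample 4, the lowest arrays for C1qa and C1qc, were the highest 3 for C5ar1. The span was 2.31-fold and the SD 0.38 log2 units, both wider than for any C1q probe set. The second probe set, 1422190_at, averaged 565.3 ± 118.5 in co-culture and 485.0 ± 116.9 in MSC-only cultures (SD, n = 6 each) and followed the first within the sets of arrays (r 0.81 and 0.88).

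Whether HSCs altered the complement genes of the cultures was asked by comparing the groups. No member changed past the threshold: 0 of 13 probe sets had an adjusted p under 0.05 in limma, against 0.00444% of all probe sets (2 of 45037). At an unadjusted p under 0.05 there were again 0 of 13, against 4.36% of all probe sets (2.81% higher and 1.55% lower). For no member did all co-cultures lie above or all below the MSC-only samples, which held for 0.124% and 0.0733% of all probe sets. Of the 13 probe sets 7 had a higher and 6 a lower mean in co-culture, with a median difference of 0.03, against a median of 0.02 over all probe sets.

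Over all 12 arrays the differences of the C1q chains were near 0. C1qa had a log2 difference of -0.05 (SE 0.14, 95% interval -0.35 to 0.25), C1qc one of -0.03 (SE 0.13, interval -0.31 to 0.26) and the brightest C1qb probe set one of -0.02 (SE 0.11, interval -0.26 to 0.22). The brightest Cfp probe set gave -0.01 (SE 0.22, interval -0.49 to 0.47), and the second gave 0.28 (SE 0.17, interval -0.08 to 0.64). Among the receptors, C3ar1 gave 0.03, 0.06 and 0.11 on its probe sets 1419482_at, 1419483_at and 1442082_at, and C5ar1 gave 0.12 (SE 0.22) on 1439902_at and 0.22 (SE 0.18, interval -0.17 to 0.62) on 1422190_at. Cfb had the widest interval, -0.20 to 0.79 around 0.30 (SE 0.23), and its value moved to 0.49 without MSC-only sample 5 and to 0.04 without samples 3 and 4. The limma adjusted p was 1 for all 13 probe sets, and the exact permutation p (two-sided, 924 arrangements) ran from 0.128 for Cfp 1447537_at to 0.957. With the side of the first component as a block 0 of the 13 passed as well. A miss of the threshold does not show equal levels, and the intervals give the sizes that remain possible.

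Without samples 3 and 4 of both groups, whose Y-linked signals were near 0, 0 of 13 passed, but the differences of most members were larger. In the arrays left, Xist was 13136 to 16604 in every co-culture and 60.5 to 117.6 in every MSC-only sample. Group and Xist signal thus coincided completely there, and their parts in these differences cannot be told apart. Of the negative-score arrays left, co-cultures 1 and 6 scored -45.9 and -46.0, and MSC-only samples 2 and 6 -30.8 and -33.8. Group and score thus went together in that set as well, and the part of the score was not tested. C1qa had a difference of -0.29 (limma unadjusted p = 0.0697, adjusted p = 0.762) and C1qc one of -0.22, and the C1qb probe sets gave -0.15 (1417063_at), -0.11 (1434366_x_at) and -0.09 (1437726_x_at). Cfp 1452279_at gave -0.21. The receptors differed the other way, C5ar1 by 0.37 (1422190_at) and 0.39 (1439902_at), and C3ar1 by 0.17, 0.20 and 0.28 on 1419482_at, 1419483_at and 1442082_at. Directions were those of the 12 arrays for all 13 probe sets, while Cfp 1447537_at dropped to 0.13 and Cfb to 0.04.

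**Figure D2:**
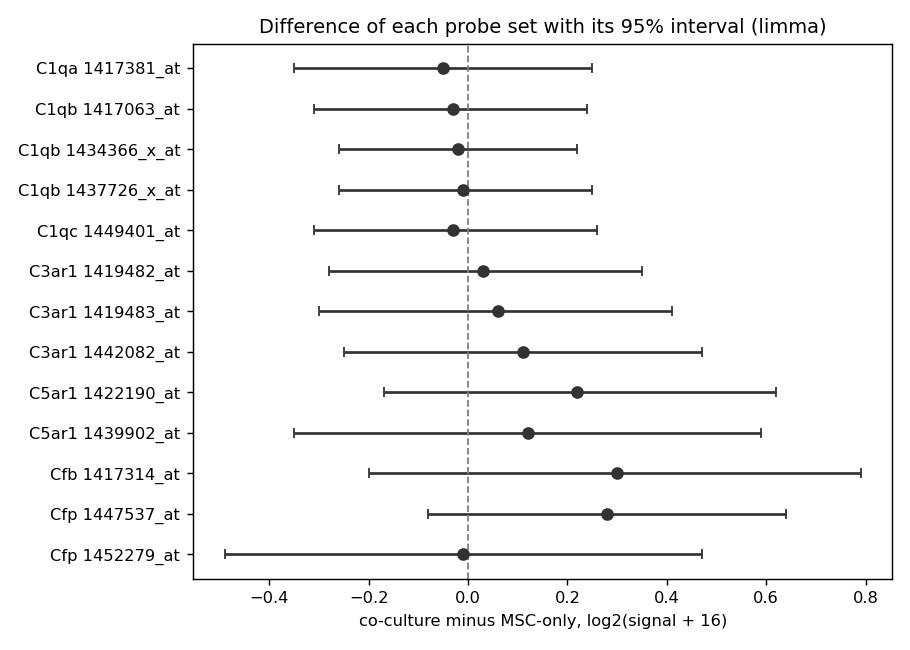
Co-culture minus MSC-only difference in log2(signal + 16) (x axis) of 13 probe sets (y axis), as points with 95% intervals from limma over 6 arrays a group. All intervals include 0, and the widest, of Cfb, runs from -0.20 to 0.79.

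C1qa and C1qc varied together across arrays of both groups, and Cfp with them in negative-score arrays. Within positive-score and negative-score arrays 21 pairs of genes were correlated in each. In the negative-score set co-cultures 1 and 6 and MSC-only sample 4 scored -46.6 to -45.9. Co-culture 4 and MSC-only samples 2 and 6 scored -33.8 to -28.7. C1qa, C1qc, Cfp, C3ar1 and C5ar1 did not overlap between these arrays, so their correlations in that set also carry this split in score. C1qa and C1qc had r = 0.88 (rho 0.83, exact permutation p = 0.00972) in positive-score and r = 0.97 (rho 0.94, exact p = 0.00833) in negative-score arrays, or 0.51 and 0.97 without the 2 arrays farthest from the median. C1qc and Cfp had r = 0.73 (rho 0.49, exact p = 0.140) and 0.97 (rho 0.77, exact p = 0.00833), or -0.35 and 0.93 without the farthest 2, so the relation rested on those arrays in the positive-score set. C1qb and C1qc had r = 0.98 (rho 0.89, exact p = 0.0111) in positive-score arrays but 0.34 (rho 0.54, exact p = 0.479) in negative-score arrays, or 0.80 and -0.55 without the farthest 2.

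C5ar1 had a negative r with all 3 C1q chains, -0.34 to -0.23 in positive-score and -0.88 to -0.64 in negative-score arrays. C1qa and C5ar1 had r = -0.34 (rho -0.60, exact p = 0.476) in positive-score and -0.88 (rho -0.77, exact p = 0.0361) in negative-score arrays, and C3ar1 and C5ar1 had r = 0.50 (rho 0.43, exact p = 0.297) and 0.79 (rho 0.89, exact p = 0.0681). Without the farthest 2 arrays these were -0.80 and -0.86 for C1qa with C5ar1, and 0.28 and 0.73 for the receptors. In negative-score arrays Cfp had r = -0.89 (rho -0.77, exact p = 0.0458) with C5ar1, but 0.36 (rho 0.31, exact p = 0.565) in positive-score arrays, or -0.87 and 0.68 without the farthest 2. Of the 42 pairs within sets 8 had an exact p under 0.05 and 0 passed the Benjamini-Hochberg adjustment (lowest adjusted p = 0.117). With 6 arrays a set, 720 arrangements limit what these tests can reach.

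When each array was expressed as its deviation from the mean of its set, which joins the 12 arrays and was chosen after the data had been seen, 3 of 21 pairs passed. They were C1qa with C1qc (r = 0.92, rho 0.89, exact permutation p = 4.05e-05, adjusted p = 0.000851), C1qc with Cfp (r = 0.89, rho 0.63, adjusted exact p = 0.0304) and C1qa with Cfp (r = 0.86, rho 0.60, adjusted exact p = 0.0304). Without the 2 farthest arrays their r was 0.89, 0.86 and 0.75. Taking off the set means left the split in score within negative-score arrays, and the permutations exchanged arrays across it. These p-values therefore do not separate co-variation of the genes from that split. By rho only C1qa with C1qc passed (adjusted exact p = 0.0230), and the other pairs had 0.144. Cfb passed with 0 of its 6 partners.

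**Figure D3:**
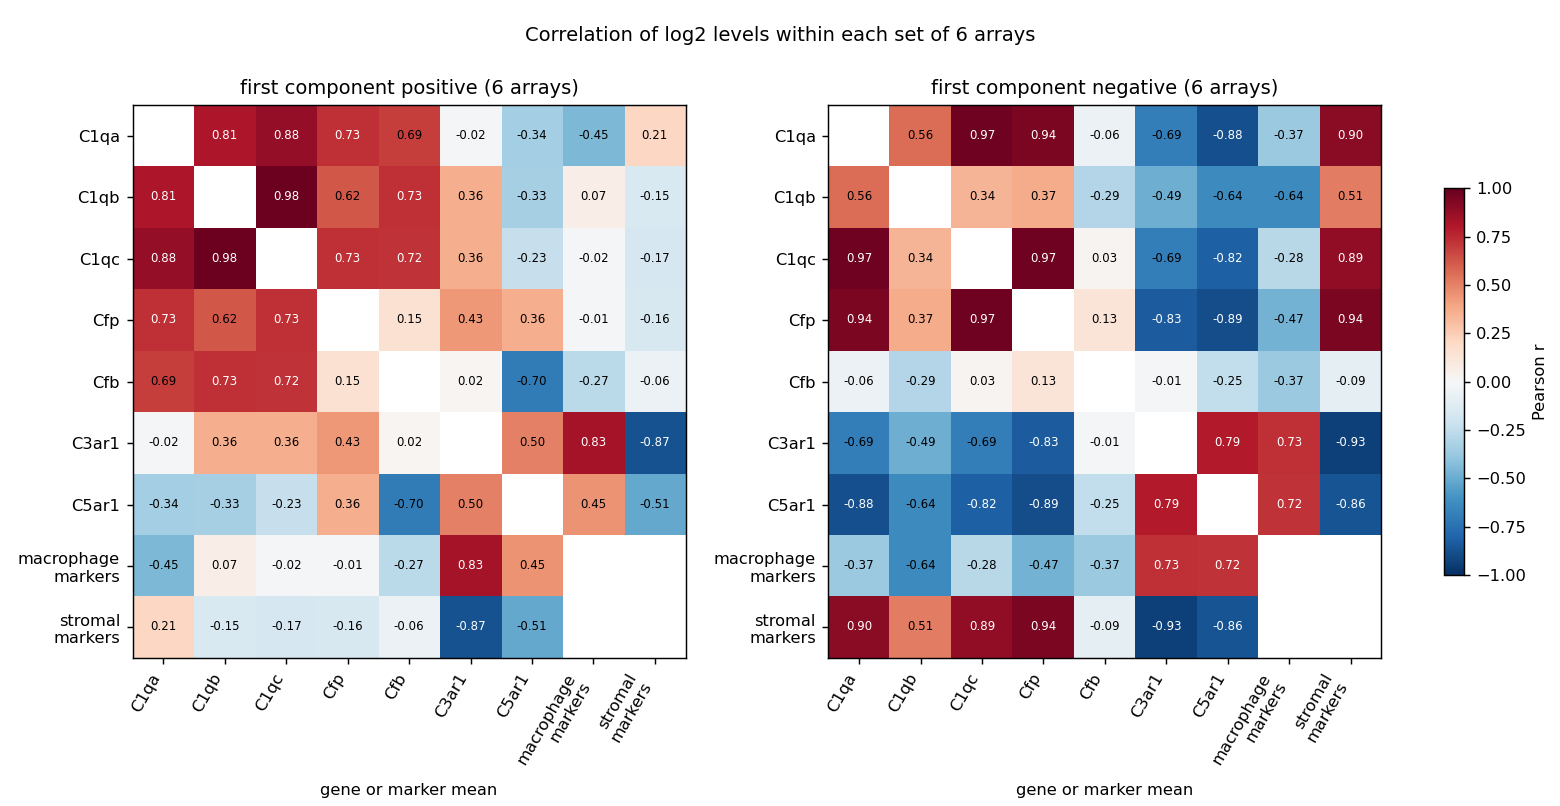
Pearson r of log2(signal + 16) between 7 complement genes and the macrophage and stromal marker means, in the 6 positive-score (left) and the 6 negative-score arrays (right), from -1 (blue) to 1 (red). C1qa, C1qc and Cfp are positively correlated in both panels, and C3ar1 is negatively correlated with the stromal markers in both (-0.87 and -0.93).

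The members were then set against the mean of the 19 macrophage and the 20 stromal markers, each centred per gene on the log2 scale. C3ar1 ran against the stromal mean, with r = -0.87 (rho -0.83, exact permutation p = 0.0208) in positive-score and -0.93 (rho -0.94, exact p = 0.0125) in negative-score arrays, and with the macrophage mean, r = 0.83 (rho 0.89, exact p = 0.0375) and 0.73 (rho 0.83, exact p = 0.0431). Without the farthest 2 arrays these were -0.79 and -0.89 with the stromal and 0.71 and 0.68 with the macrophage mean. Quantile normalization left the stromal values at -0.87 and -0.94 but gave 0.65 and 0.36 (exact p = 0.15 and 0.465) with the macrophage mean. The stromal mean was -0.50, 0.05, 0.47, -0.06, -0.13 and -0.49 in co-cultures 1 to 6 and 0.48, -0.02, 0.39, -0.42, 0.29 and -0.07 in MSC-only samples 1 to 6. Co-cultures 1 and 6 and MSC-only sample 4 were thus the 3 arrays with the lowest stromal means. They had the highest 3 signals of C5ar1, the highest 3 of C3ar1 on 1442082_at and 1419483_at and the lowest 3 of C1qa and C1qc. On C3ar1 1419482_at MSC-only sample 6 (10124) lay above MSC-only sample 4 (9517).

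C1qa had r = 0.21 (rho 0.26, exact p = 0.693) with the stromal mean in positive-score and 0.90 (rho 0.54, exact p = 0.0931) in negative-score arrays, and Cfp had -0.16 (rho -0.03, exact p = 0.778) and 0.94 (rho 0.71, exact p = 0.0931). Without the farthest 2 arrays C1qa gave 0.81 and 0.96 and Cfp -0.90 and 0.99. The values in negative-score arrays again carry the split in score. The stromal mean was -0.50 to -0.42 in co-cultures 1 and 6 and MSC-only sample 4. It was -0.07 to -0.02 in co-culture 4 and MSC-only samples 2 and 6. With the macrophage mean C1qa gave -0.45 and -0.37 (exact p = 0.368 and 0.564), C1qb 0.07 and -0.64 (exact p = 0.929 and 0.103) and C1qc -0.02 and -0.28 (exact p = 0.969 and 0.688). The C1q chains, which macrophages make, thus had an r of at most 0.07 with this mean of macrophage markers, some of them dim, in either set. Of 28 such pairs 4 had an exact p under 0.05 and 0 passed the adjustment (lowest adjusted p = 0.288). As deviations from the set means, 2 of 14 pairs passed, C3ar1 with the stromal mean (r = -0.90, rho -0.89, adjusted exact p = 0.00789, r = -0.88 without the 2 farthest) and with the macrophage mean (r = 0.78, rho 0.86, adjusted exact p = 0.0269, r = 0.67 without them). The split in score within negative-score arrays remains in these deviations too. What moves C3ar1 with these markers was not tested.

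**Figure D4:**
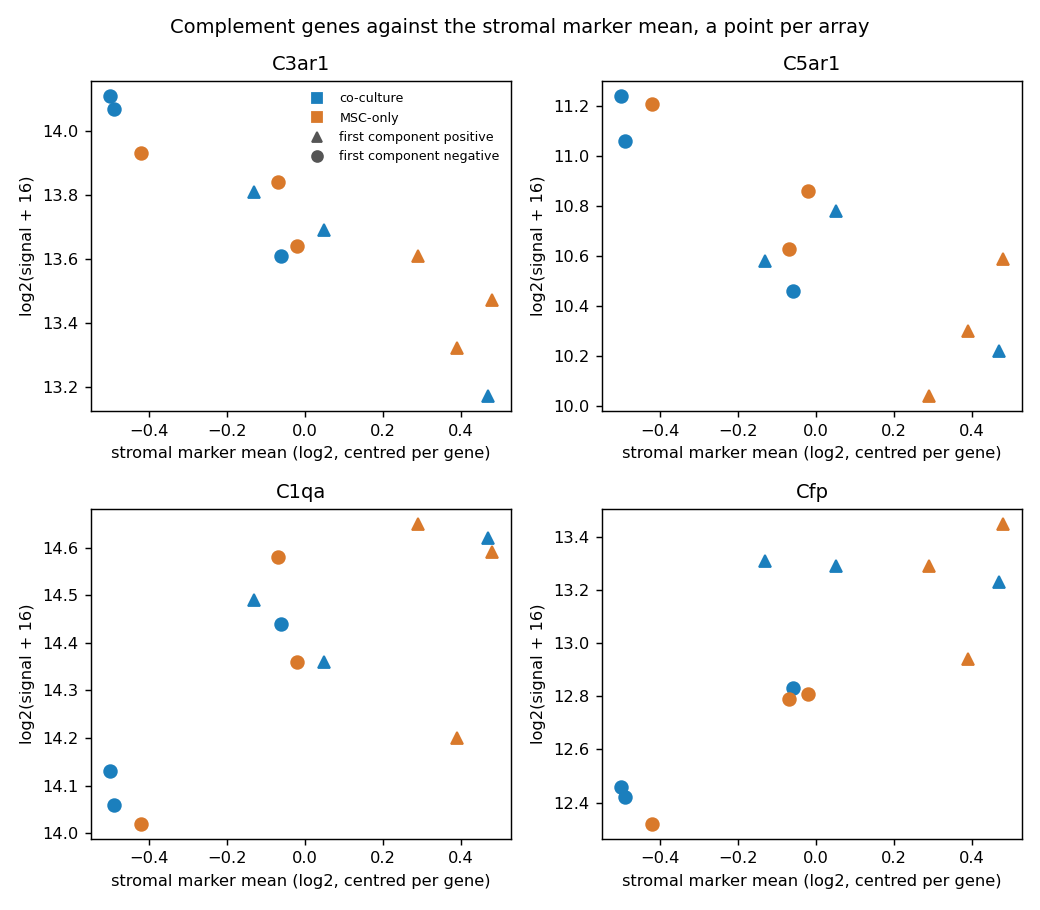
Level in log2(signal + 16) (y axis) of C3ar1, C5ar1, C1qa and Cfp against the stromal marker mean (x axis, log2, centred per gene), with a point for each of 12 arrays, co-culture in blue and MSC-only in orange, positive-score arrays as triangles. C3ar1 is lower at higher stromal means in both sets of arrays, and Cfp lies higher in triangles than in circles.

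The genes most like each member were ranked by r over the 12 arrays among 8753 genes with a mean signal of at least 200, and r is given within positive-score and negative-score arrays as a description. C1qa was most like Tmem176b (0.78 and 1.0), Ppt1, a lysosomal thioesterase (0.86 and 0.96), and the pattern receptor Tlr2 (0.83 and 0.97). C1qc was most like Tspan4 (0.91 and 0.99), Sgsh, a lysosomal sulfatase (0.92 and 0.97), and Fkbp15 (0.91 and 0.94), and Cfp most like Lmo2, a hematopoietic transcription cofactor (0.75 and 0.93), Tk2 (0.63 and 0.91) and Helz (0.70 and 0.90). C1qb was most like Mbd6 (0.96 and 0.95), Mtf1 (0.98 and 0.55) and Zkscan8 (0.95 and 0.81). The receptors had other neighbours, Pik3cb (0.96 and 0.96), Pcnx (0.94 and 0.94) and Zc3h12d (0.90 and 0.95) for C3ar1 and Tbcb (0.90 and 0.92), Crip1 (0.87 and 0.95) and Mettl7a1 (0.89 and 0.96) for C5ar1. For Cfb the best matches were weaker, Slc35a2 (0.94 and 0.69), Mfsd11 (0.91 and 0.59) and Idua (0.90 and 0.49).

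Of 50 other complement genes 40 were measured, 21 with a higher and 19 with a lower mean in co-culture. The split depended on the arrays and probe sets taken, with 29 higher without samples 3 and 4 of both groups and 27 where all probe sets of a gene were averaged. Their median difference was 0.02, against 0.01 over 18193 genes, where 53.3% had a higher and 46.7% a lower mean. In limma 0 of 40 passed the threshold and 0 had an unadjusted p under 0.05, against 0.011% and 3.91% of all genes. By role, 6 of 12 recognition molecules and proteases, 5 of 6 terminal components, 5 of 13 regulators and 5 of 9 receptors had a higher mean. The terminal components, which form the membrane attack complex, were dim (median of the mean signals 30.6) and had a median difference of 0.25. Of these, C9, its pore-forming unit, had the smallest p of the 40, with 47.8 ± 11.6 in co-culture and 33.7 ± 13.5 in MSC-only cultures (SD, n = 6 each), a difference of 0.38 (SE 0.19, limma adjusted p = 1).

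Next by p among those with a higher mean were the ficolin Fcnb (difference 0.63, SE 0.35) and clusterin, Clu (0.56, SE 0.34), and among those with a lower mean the mannose-binding lectin Mbl1 (-0.24, SE 0.20), Colec11 (-0.15, SE 0.20) and the macrophage receptor Vsig4 (-0.22, SE 0.29), all with a limma adjusted p of 1. C8a, C8g and C6, also terminal units, had mean signals of 44.2, 35.2 and 26.0. The brightest regulators were Cr1l, a mouse inhibitor of the C3 convertase (mean signal 2862), Cd59a, which blocks the attack complex (615.4), and the C1 inhibitor Serping1 (519.1), with differences of -0.04, -0.01 and -0.29. Serping1 was the most variable of these, with an SD of 1.1 log2 units over the arrays, against 0.10 for Cr1l and 0.21 for Cd59a. It followed the stromal marker mean, with r = 0.86 in positive-score and 0.77 in negative-score arrays as a description.

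Several of the other complement genes differed widely between the sets of arrays. Fcna, the ficolin of mouse macrophages, measured 240.3, 1228, 638.1, 158.9, 1247 and 257.6 in co-culture and 1046, 205.8, 1094, 297.0, 513.2 and 115.7 in MSC-only cultures. It was thus 513.2 to 1247 in positive-score and 115.7 to 297.0 in negative-score arrays. Masp1, a protease of the lectin pathway, ran from 557.4 to 890.9 in positive-score and from 250.9 to 304.6 in negative-score arrays. Cd93, first described as a C1q receptor, was 13246 to 14587 in positive-score and 9306 to 10726 in negative-score arrays. These 3 genes followed the direction of Cfp. Without the share over all probe sets, such separations are a description and not a trait particular to complement genes.

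The integrin chains of complement receptors 3 and 4 ran the other way. Itgb2, the chain common to both, measured 8832 to 10509.6 in positive-score and 11414 to 15706 in negative-score arrays. Itgam, named after its values were seen, measured 269.4 to 496.0 in positive-score and 760.0 to 1746 in negative-score arrays, and Itgax, named likewise, 68.0 to 251.2 and 348.1 to 1341. These integrins thus followed the direction of C3ar1 and C5ar1. The receptor Lrp1, also named after its values were seen, separated narrowly (3578.0 to 4456.2 in positive-score and 4513.0 to 6789.4 in negative-score arrays). By contrast C1qbp and Calr, proteins of mitochondria and of the endoplasmic reticulum that bind C1q, varied little, with an SD of 0.12 log2 units each. Group differences of Fcna (0.19, SE 0.64), Masp1 (-0.07, SE 0.36), Cd93 (0.07, SE 0.15), Itgb2 (0.01, SE 0.16), Itgam (-0.14, SE 0.50) and Itgax (0.37, SE 0.78) all had a limma adjusted p of 1. Colec12 and C1s1, the remaining bright recognition genes, gave 0.29 (SE 0.23) and -0.15 (SE 0.40).

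**Figure D5:**
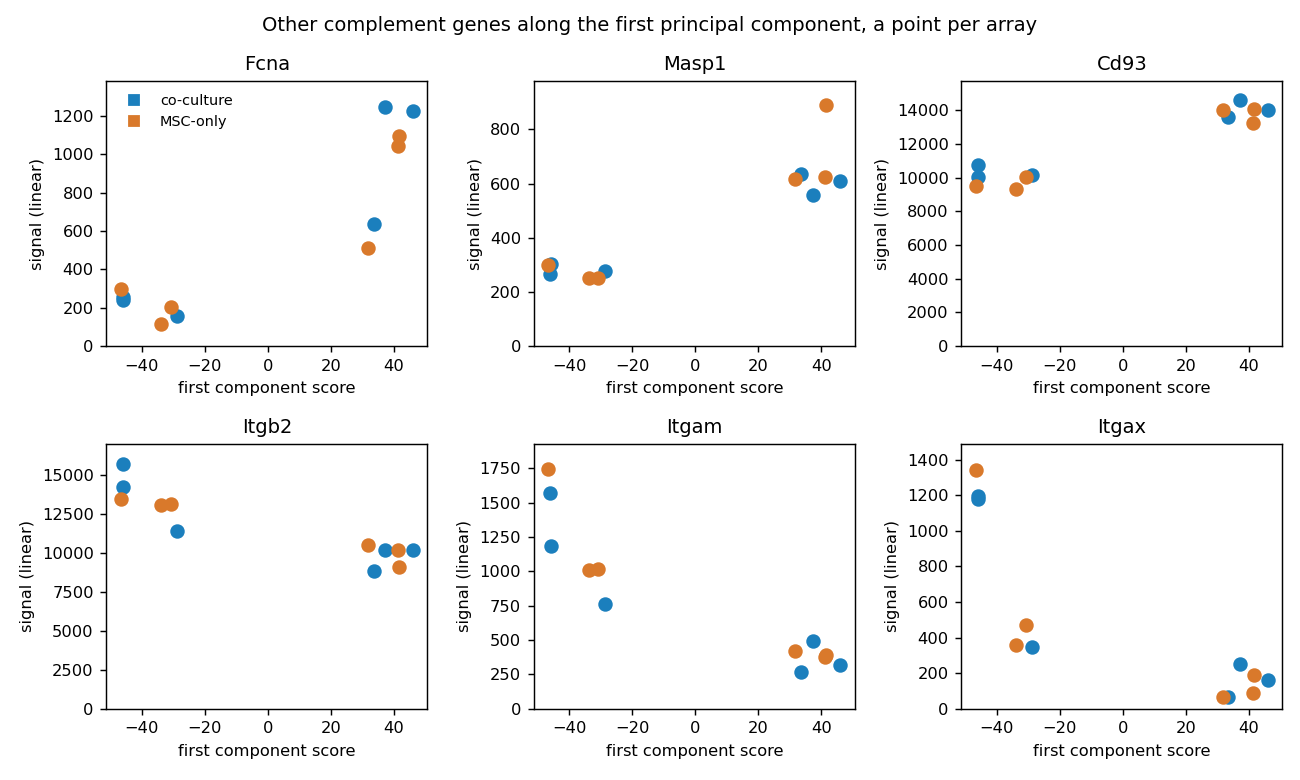
Linear signal (y axis, from 0) of 6 complement genes outside the 8 against the first component score (x axis), with a point for each of 6 co-culture (blue) and 6 MSC-only arrays (orange). Fcna, Masp1 and Cd93 are higher and Itgb2, Itgam and Itgax lower at positive scores, without overlap and in both groups. The share of all probe sets without such overlap was not computed.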

How the data were processed

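Total RNA of 12 cultures was hybridized to Affymetrix mouse genome arrays, which the authors scanned and analysed with the GeneChip Operating Software. The deposited values are its signal intensity per probe set on a linear scale, with a 2% trimmed mean of 496.6 to 497.3 on every array, while its summary method and scaling target are not stated. Of 45037 probe sets, 34945 carried 1 gene symbol, 932 several and 9160 none. Groups came from the sample labels. Signals were taken as log2(signal + 16), unfiltered, and compared without a block in limma 3.58.1 (R 4.3.3), adjusted by Benjamini-Hochberg over all probe sets at a threshold of 0.05. Where 1 value a gene was needed, the brightest probe set was taken. Correlations (numpy 2.4.6) used exact permutations, over 720 arrangements within a set of 6 arrays or 518400 within both sets.

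The members and gene lists were chosen with earlier results of these data known. Named were all member probe sets, 3 other complement genes a direction by p, the 4 brightest of each role, the 3 genes most like each member and the sort genes. Alternatives covered the constant, the scaling, a filter on dim probe sets, a replicate block, limma's trend, the methods' t-test and leaving out each array. The other cell type lists were compared by counts only. Neutrophil (10 of 10 measured), dendritic cell (8 of 8), mast cell (7 of 7), lymphocyte (7 of 8), endothelial (6 of 6), erythroid (3 of 5) and progenitor lists (6 of 7) had 0 genes past limma's threshold and, in this order, 2, 0, 0, 1, 0, 0 and 1 at an unadjusted p under 0.05. Over all genes the share at an unadjusted p under 0.05 in limma was 3.91%. The number of arrays limits the precision.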

Additional observations from a re-analysis of the deposited data

Results flagged for a closer look

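A single array lay far from the other 5 of its group for 8 of 106 groups of values examined. The cut marks about 1 in 20 groups of normally distributed values. It was applied to linear signals and all 8 marked values were high ones, so that rate need not hold here. Among the members this was Cfb in MSC-only sample 5, at 47.1, where the next highest MSC-only array had 16.5.

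Among regulators, Serping1 measured 1285.5 in co-culture 3 (next 488.3), Clu 659.0 in co-culture 2 (next 248.6), Cd55, the decay-accelerating factor, 236.5 in MSC-only sample 5 (next 103.9), Susd4 52.0 in MSC-only sample 3 (next 17.3) and Cpn1, a subunit of the carboxypeptidase that inactivates C3a and C5a, 33.8 in MSC-only sample 6 (next 10.2). The terminal component C6 measured 69.1 in co-culture 1 (next 29.2), and Itgax 1341.1 in MSC-only sample 4 (next 473.0). MSC-only sample 5 accounted for both Cfb and Cd55.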

How the results depend on the processing

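Every member stayed short of the threshold under all alternatives, those chosen after seeing the data included (first-component side as a block, either set of arrays alone, without samples 3 and 4), except that Cfb was too dim to enter the filtered fit. Over all probe sets the count past it was 2, and 1 with a constant of 1, quantile normalization, median centring, the methods' t-test or the side as a block. It was 0 with a constant of 64, a mean signal of at least 100, limma's trend and robust options or either set alone, 8 without samples 3 and 4 of both groups, and 0 to 4 when single arrays were left out.

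Whether same-numbered cultures were paired could not be decided. Correlations of same-numbered deviations were -0.161 and -0.133 for numbers 1 and 2 and 0.103 to 0.154 for numbers 3 to 6. Only number 4 matched best with itself. Numbers 1 and 2 each joined a positive-score with a negative-score array and numbers 3 to 6 did not, so these correlations also carry that split. Y-linked signals went with the number in both groups. Eif2s3y was at most 13.6 in numbers 3 and 4. In numbers 1, 2, 5 and 6 it was 1022 to 1331 in co-cultures and 2604 to 2845 in MSC-only samples. A shared mouse or preparation was not tested. With the replicate block 0 probe sets passed, and 2 with it as a random block.

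Differences near 0 changed sign. C3ar1 1419482_at became -0.01 with median centring, which moved the median of all probe sets to -0.023. In positive-score arrays alone C1qa became 0.01, C1qb 0.02 (1434366_x_at) and 0.01 (1437726_x_at), C1qc 0.03 and Cfp 1452279_at 0.05, and in negative-score arrays C3ar1 1419483_at became -0.01. With single arrays left out, C1qa ran from -0.13 to 0.01, C1qb from -0.11 to 0.02 (1417063_at), -0.06 to 0.05 (1434366_x_at) and -0.05 to 0.07 (1437726_x_at), C1qc from -0.12 to 0.03, C3ar1 from -0.05 to 0.12 (1419482_at) and -0.02 to 0.15 (1419483_at), and Cfp 1452279_at from -0.13 to 0.09. C5ar1 ran from 0.13 to 0.31 (1422190_at) and 0.01 to 0.24 (1439902_at), C3ar1 1442082_at from 0.04 to 0.22, Cfb from 0.23 to 0.49 and Cfp 1447537_at from 0.15 to 0.38. The constant moved Cfb between 0.12 (64) and 0.53 (1). Without MSC-only sample 5, 2 of 13 member probe sets had an unadjusted p under 0.05 in limma, Cfb at 0.49 and Cfp 1447537_at at 0.38, against 4.40% of all probe sets. In negative-score arrays alone 1 had, Cfb at 0.48, against 5.19%.

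In positive-score arrays the correlation of C1qc with Cfp ran from -0.27 (without MSC-only sample 3) to 0.88, and that of Cfp with the stromal mean from -0.54 to 0.18. C3ar1 with the macrophage mean fell to 0.54 in negative-score arrays with a constant of 64, and to 0.36 with quantile normalization. Pairs past the threshold were 0 within the sets, and 3 of members and 2 with marker means as deviations from the set means. The filter left fewer complement genes, 9 with a higher mean against 21, and the count was 20 to 27 with single arrays left out. The causes of these changes were not tested.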
